A study of Xenopus laevis with 13 samples.

Results

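Hox genes encode homeodomain transcription factors that sit in clusters named a to d and pattern the body from head to tail. They are numbered by paralogue group, and in vertebrates the low numbers lie at one end of a cluster and are generally switched on earlier and further towards the head than the high numbers. The TALE homeodomain proteins (named for a loop extension of a few amino acids) Pbx, Meis and Pknox (also called Prep) bind DNA together with Hox proteins and with each other, and Meis and Pknox proteins help to bring Pbx proteins into the nucleus. Tgif proteins belong to the same TALE class, but act mainly as repressors, among others through Smad proteins of the TGF-beta pathway. In *Xenopus*, Hox expression starts in the mesoderm during gastrulation, and Meis3 is known as a posteriorizing factor of the hindbrain.

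The members were all gene models of *X. laevis* whose name in the table of single libraries is that of a Hox gene of cluster a to d, or of a numbered Meis, Pbx, Pknox or Tgif gene. This name rule gave 68 of 54110 gene models, 44 of them Hox and 24 TALE, under 40 different names. *X. laevis* is allotetraploid, so that many genes have more than 1 copy. RNA was sequenced from 5 single whole eggs of Nieuwkoop-Faber (NF) stage 1, collected after fertilization and before cleavage, and from 5 single whole embryos of NF stage 10.5, the early gastrula. Another 3 libraries of stage 10.5 are labelled as technical replicates and were only described. All eggs were fertilized in vitro and came from a single female that had been injected with human choriogonadotropin, so that p-values do not cover differences between females. No genotype, strain or age is given. Levels are given in FPKM, in which the reads of a model are divided by its length and by the sequencing depth of the library. Egg libraries were made with a standard Illumina protocol and embryo libraries with another kit and an enzymatic strand-selection step, so that stage and library preparation cannot be told apart in any difference below. In whole eggs and embryos, transcripts in fewer cells and less transcript per cell cannot be told apart either.

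Reads were recovered from the steps of the low FPKM values. They came to between 1424702 and 1963095 per egg library, 999568 and 3155985 per embryo library, and 482536 and 856286 per technical library. The stage labels were checked with early zygotic genes such as the mesodermal gene t and the organizer gene chrd. Of 10 such genes, 6 were found by name, on 9 gene models, and the sum of their levels was at most 1.11 FPKM in any egg and between 643.9 and 954.0 FPKM in the embryos. Of 8 maternal genes, 4 were found, and their summed level was 355.2 to 592.0 FPKM in eggs and 480.1 to 890.8 FPKM in embryos. Among these, velo1 was at 0 in all 5 eggs and had a mean of 0.0703 FPKM in embryos. The sums thus come from dazl, ddx25 and h1foo. By the test described below, all 9 models of the first list were higher in embryos, against 31.6% of all models tested. Of these 9, 5 were at 0 in all eggs and the others had egg means of at most 0.160 FPKM. All 9 thus passed the filter on low values, given below, only through their embryo values and had to be higher there. Of the 5 models tested from the second list, 1 was higher in embryos and 4 did not pass. The model called was h1foo on scaffold 000255257, with 141.5 ± 46.3 FPKM in eggs and 274.3 ± 107.1 FPKM in embryos.

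The Hox genes were at or near 0 in eggs, and in early gastrulae hoxd1 made up most of their summed level, while Pbx, Pknox and Tgif genes were present at both stages. The summed level of 43 Hox gene models, leaving out a model that joins hoxa2 to another gene, was 0.515 ± 0.307 FPKM in eggs and 27.6 ± 7.55 FPKM in embryos (SD, n = 5). It was at most 0.861 FPKM in any egg and at least 19.4 FPKM in any embryo. The 6 Meis models summed to 0.993 ± 0.606 FPKM in eggs and 41.6 ± 11.8 FPKM in embryos. The 7 Pbx models, again without a composite model, summed to 14.3 ± 1.48 FPKM in eggs and 31.9 ± 3.42 FPKM in embryos, and the 6 Tgif models went from 73.4 ± 9.36 to 158.5 ± 9.84 FPKM. In these 4 families the lowest embryo lay above the highest egg. The 4 Pknox models summed to 8.89 ± 6.49 FPKM in eggs and 8.97 ± 2.16 FPKM in embryos, and the eggs spread from 4.18 to 20.2 FPKM around the embryos. The sums are descriptions and were not tested.

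**Figure D1:**
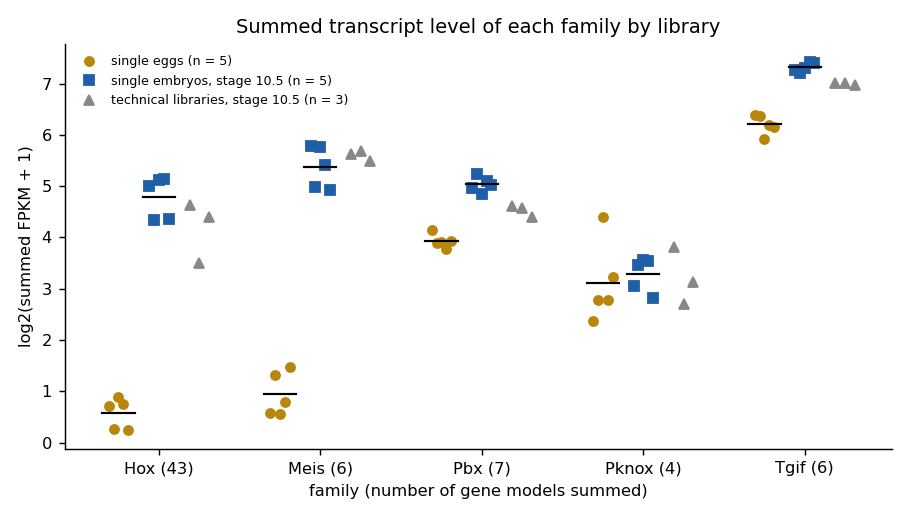
Summed FPKM of the gene models of each family on a log2(sum + 1) axis, 1 point per library (gold circles eggs, blue squares single embryos, grey triangles technical libraries; points are spread sideways for visibility) and a bar at the mean of the log values for eggs and for embryos. Hox sums were 0.181 to 0.861 FPKM in eggs and 19.4 to 34.2 FPKM in embryos, whereas Pknox sums of both stages overlapped.

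Eggs and embryos were then compared gene model by gene model with limma on log2(FPKM + 1), keeping the 19373 models whose mean over the 10 single libraries was 1 FPKM or more. Log2 changes are embryo minus egg on this scale, which understates the change of low genes, and p-values were adjusted over all models tested. Only 19 of the 68 members passed the filter on low values. Of these, 10 were higher in embryos, 2 were higher in eggs and 7 did not pass the adjusted p of 0.05. In the whole table, 31.6% of tested models were called higher in embryos and 25.2% higher in eggs. Without 2 composite models, the members counted 10, 1 and 6 of 17. The ranges of eggs and embryos did not overlap, with embryos higher, in 10 of the 19 members tested, against 23.5% of all models tested. They did not overlap with eggs higher in 1 of the 19, a composite, against 18.3% of all models tested. Members below the filter are not in these counts. The models of hoxd1 and meis3 and the minus-strand model of tgif1 passed the filter only through their embryo values, so that they had to differ. The 2 members called higher in eggs had embryo means of 0.364 and 0.826 FPKM and passed the filter only through their egg values. The counts above therefore say little about the 49 members below the filter. Across all models the median log2 change was 0.12.

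**Figure D2:**
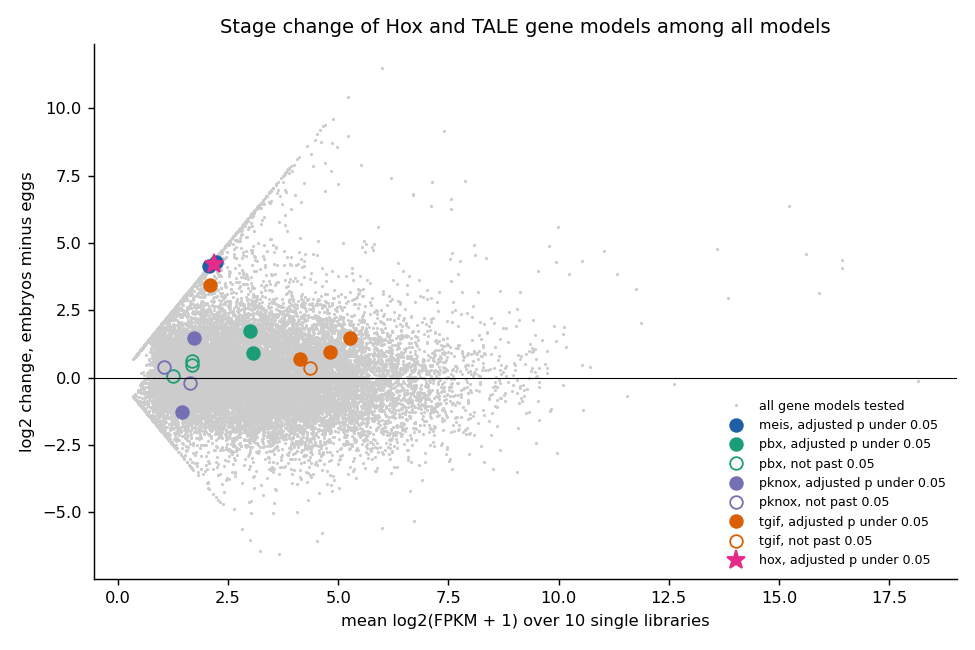
Log2 change (embryos minus eggs) against the mean log2(FPKM + 1) over the 10 single libraries, for all 19373 gene models tested (grey) and for the 17 non-composite members tested (coloured by family; filled symbols have an adjusted p under 0.05, the star is hoxd1). The hoxd1 star and both meis3 points lie together at log2 changes of 4.14 to 4.28, and the called Pknox1 point lies below 0.

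Among the Hox genes, hoxd1 was the only member that reached the filter, apart from the composite model with hoxa2. Its protein belongs to the first paralogue group, which is expressed earliest in vertebrate embryos. The model lies on scaffold 000004321 of the JGIv7b assembly, at 5050433 to 5052512 on the plus strand, and has 2 exons. It was listed at 0 FPKM in 4 eggs and at 0.247 FPKM in egg 4, which is 1 recovered read. The embryos had 25.6, 10.5, 22.4, 21.1 and 16.9 FPKM, from 349 reads in total, and the technical libraries had 8.95, 3.37 and 10.7 FPKM. All embryos lay far above all eggs, and the technical libraries lay between the eggs and most of the embryos. The mean was 0.0494 ± 0.110 FPKM in eggs and 19.3 ± 5.80 FPKM in embryos. With limma the log2 change was 4.22 ± 0.24 (SE, adjusted p = 9.5e-08). The model passed the filter only through its embryo values, so that it had to be higher there. The ratio of pooled levels was 390, with a 95% interval of 69.6 to 15457 that covers counting error only, since the egg value rests on 1 read.

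This hoxd1 model shares 1576 exon bases with a model on the opposite strand, at 5049925 to 5052509, which is unnamed in the FPKM table and is called hoxd1 in the annotation. Although the libraries were strand-specific, the use of strand in the counting is not stated, and the reads of the overlapping models cannot be told apart. The minus-strand model had 6.32 ± 1.85 FPKM in embryos and under 0.0001 FPKM in eggs. Taken as 1 locus, both strands summed to 0.0494 ± 0.110 FPKM in eggs, 25.6 ± 7.13 FPKM in embryos and 14.2 ± 2.22 FPKM in technical libraries.

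The annotation named 27 further models for Hox or TALE genes that carry no such name in the FPKM table and are therefore no members. The most abundant of these in embryos was another hoxd1, on scaffold 000043242 (3907683 to 3909833, plus strand). It was at 0 in all 5 eggs and had 20.1, 11.6, 15.98, 17.4 and 13.6 FPKM in the embryos. Every embryo stood above every egg. The mean was 15.7 ± 3.30 FPKM, at least 100.9-fold above the level that 3 reads over the 5 eggs would give (log2 change 4.04 ± 0.19, limma adjusted p = 2.2e-08). This model, too, passed the filter only through its embryo values.

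Most other Hox members were close to the limit of detection. In eggs, 38 of the 43 models were at 0 in every library, and the 43 models together had 11 recovered reads. In embryos 30 models were above 0 in at least 1 library, 28 of them with at least 1 read in total, but only 11 had more than 3 reads over the 5 embryos. A total of 13 models were at 0 in all 10 single libraries, among them both hoxa2 models and both hoxa13 models. For hoxa13 on scaffold 000099185, 3 reads over the embryos would correspond to a mean of 0.0923 FPKM, so that levels below it were not detectable at this depth. The limits of 3 reads cover counting error only.

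Of the anterior group (paralogues 1 to 3, 13 models), the summed level was 0.0495 ± 0.111 FPKM in eggs and 23.3 ± 7.31 FPKM in embryos, of which hoxd1 made up most. More than 3 reads over the 5 embryos were found for 5 of the 13 anterior models, 4 of the 14 central models and 2 of the 14 posterior models described next, and the groups were not tested against each other. The hoxb1 model on scaffold 000075417 was above 0 in embryos 2 and 3 only, at 1.91 and 5.04 FPKM, from 7 reads.

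The central group (paralogues 4 to 8, 14 models) was at 0 in all eggs and summed to 2.89 ± 0.859 FPKM in embryos and 5.49 ± 1.60 FPKM in technical libraries. The only central member above 0 in every embryo was hoxc6 on scaffold 000187496, with 1.24, 1.14, 0.806, 0.759 and 0.348 FPKM from 20 reads. Its technical libraries had 5.22, 3.58 and 2.0997 FPKM and thus lay above all 5 single embryos, unlike those of hoxd1. These values rest on only 10, 4 and 4 reads, and the difference was not tested. The hoxc6 copy on scaffold 000005732, named only in the annotation, was also at 0 in eggs and above 0 in all 5 embryos, from 30 reads. Its embryos had 0.186 to 0.860 FPKM, and its technical libraries lay within that range, at 0.278, 0.238 and 0.840 FPKM. The posterior group (paralogues 9 to 13, 14 models) summed to 0.466 ± 0.292 FPKM in eggs and 1.36 ± 0.7099 FPKM in embryos, from 10 and 24 reads. In eggs no posterior library had more than 3 reads, so that differences between its models in eggs were not detectable at this depth. A further 2 models join hoxd3 and hoxd4 and had at most 1 read in the embryos.

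**Figure D3:**
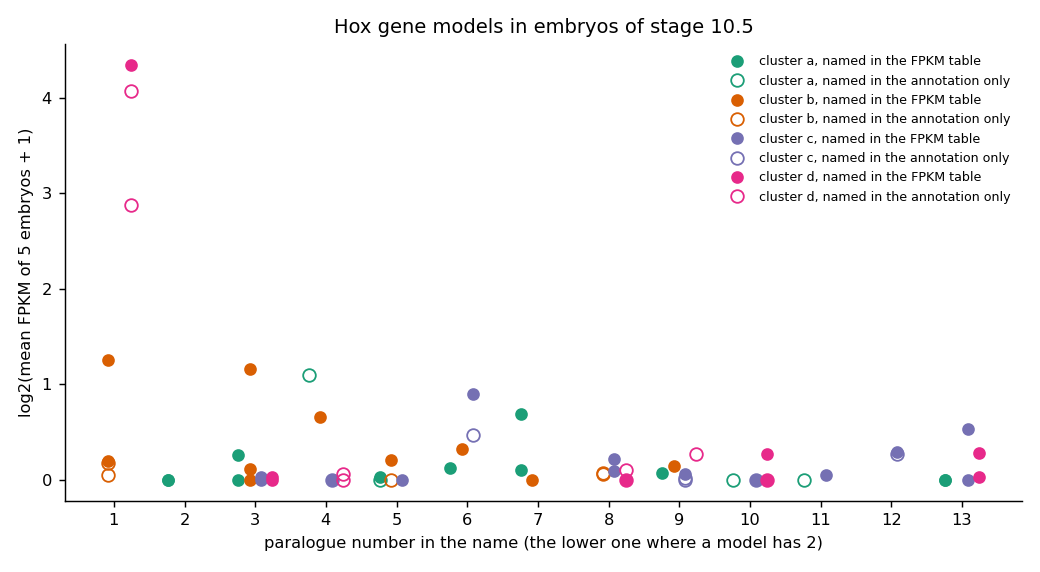
Mean level of Hox gene models in the 5 embryos, as log2(mean FPKM + 1), against the paralogue number in its name, coloured by cluster and shifted sideways by cluster for visibility. Filled circles are members and open circles are models named only in the annotation. The hoxd1 models have the highest values plotted, and no model plotted at paralogue number 2 or higher lies above a log2 value of 2.

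Of the Meis genes, only the copies of meis3 were tested. They were nearly absent in eggs and among the most abundant members outside the Tgif family in embryos. Both copies passed the filter only through their embryo values, so that they had to be higher there. The copy on scaffold 000039723 (8671633 to 8701489, minus strand, 12 exons) had 0, 0, 0.184, 0 and 0.128 FPKM in eggs, which is 2 reads. It had 29.3, 11.1, 26.8, 23.8 and 13.7 FPKM in embryos and 27.1, 35.5 and 25.7 FPKM in technical libraries. The lowest embryo was embryo 2, as for hoxd1. The means were 0.0626 ± 0.0879 and 20.9 ± 8.10 FPKM (log2 change 4.28 ± 0.28, limma adjusted p = 2.5e-07). The ratio of pooled levels was 367, with a 95% counting interval of 101.3 to 3039.

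The second meis3, on scaffold 000050079 (3222681 to 3256053, plus strand, 11 exons), was at 0 in all 5 eggs. Embryos had 21.2, 15.8, 21.1, 13.5 and 13.1 FPKM, and technical libraries had 18.2, 10.7 and 17.2 FPKM. No library of stage 10.5 approached 0. The embryo mean was 16.9 ± 3.97 FPKM, at least 132-fold above the egg limit of 0.129 FPKM (log2 change 4.14 ± 0.20, adjusted p = 2.2e-08).

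The other Meis models stayed below 2 FPKM in the 10 single libraries and below the filter. The model named meis2 and meis1 on scaffold 000012020 was at 0 in eggs and at 1.37 ± 0.311 FPKM in embryos, present in all 5 and at least 12.7-fold above the egg limit. The similarly named model on scaffold 000111824 was above 0 in all 10 libraries, with 0.645 ± 0.495 FPKM in eggs and 1.16 ± 0.595 FPKM in embryos. The meis2 models on scaffolds 000203041 and 000265107 were above 0 in all 5 embryos, at 0.839 ± 0.328 and 0.389 ± 0.283 FPKM. Their egg means were 0.0559 and 0.230 FPKM.

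Pbx genes, the direct DNA-binding partners of many Hox proteins, were present in eggs and 2.24-fold higher in sum in embryos. The largest Pbx change was that of pbx3 on scaffold 000089755 (323161 to 513435, minus strand). Eggs had 3.54, 3.22, 2.66, 3.55 and 4.05 FPKM and embryos had 11.7, 16.8, 13.3, 10.98 and 15.0 FPKM. Every embryo was above every egg, and the mean rose 3.98-fold, from 3.41 ± 0.513 to 13.5 ± 2.39 FPKM (log2 change 1.72 ± 0.18, adjusted p = 1.1e-05). The technical libraries had 9.71, 6.16 and 7.59 FPKM, below all 5 single embryos.

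Neither pbx2 model outside the composite passed the test. For pbx2 on scaffold 000012933 (4925508 to 4949689) the eggs had 0.997, 2.61, 2.80, 1.59 and 0.726 FPKM and the embryos 3.18, 3.04, 2.41, 3.78 and 2.60 FPKM. Eggs 2 and 3 reached into the embryo range (log2 change 0.60, 95% interval 0.02 to 1.18 before adjustment, adjusted p = 0.071). The change passed without egg 2 (0.72, adjusted p = 0.043) or without egg 3 (0.74, adjusted p = 0.028). It was tested in 16 settings of the fit (the main one, other processing, or 1 library left out) and passed only in these 2. The other pbx2, on scaffold 000075398, was above 0 in all libraries at 1.36 ± 0.357 and 1.48 ± 0.500 FPKM (adjusted p = 0.83). It overlaps an opposite-strand model that the annotation also names pbx2. The pbx3 copy on scaffold 000403228 had 0.402 ± 0.139 FPKM in eggs and 0.397 ± 0.126 FPKM in embryos and was not tested. A pbx2 fragment on scaffold 000091366 was at 0 throughout.

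Pknox genes went in different directions. The pknox1 copy on scaffold 000347078 (1055021 to 1064485, plus strand) had 1.52, 1.85, 8.20, 2.09 and 5.95 FPKM in eggs and 0.176, 0.539, 1.712, 0.717 and 0.985 FPKM in embryos. Eggs 3 and 5 were high, and embryo 3 was above egg 1, so that the groups overlapped slightly. The mean was 3.92 ± 2.99 FPKM in eggs and 0.826 ± 0.576 FPKM in embryos (log2 change -1.28 ± 0.40, limma adjusted p = 0.017), from 69 and 11 reads. It was the only non-composite member called higher in eggs, and it passed the filter of 1 FPKM only through its egg values. The copy on scaffold 000186499 (240063 to 251867) had 2.14, 1.45, 6.96, 2.66 and 0.747 FPKM in eggs and 1.66, 2.54, 3.13, 1.97 and 0.772 FPKM in embryos. Egg 3 was again the highest, and the difference was within the spread (log2 change -0.19, 95% interval -1.05 to 0.67, adjusted p = 0.70).

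In contrast, pknox2 on scaffold 000083106 (1377404 to 1760304, plus strand, 15 exons) was higher in embryos. Eggs had 0.519, 0.792, 1.46, 1.11 and 1.13 FPKM and embryos had 3.61, 4.15, 5.61, 6.28 and 3.37 FPKM. The groups did not overlap (1.00 ± 0.359 against 4.61 ± 1.28 FPKM, log2 change 1.47 ± 0.23, adjusted p = 2.4e-04). The pknox2 copy on scaffold 000075966 was at 0 in eggs 1 and 4 and above 0 in all 5 embryos, with means of 1.18 ± 1.52 and 1.52 ± 0.916 FPKM (adjusted p = 0.48).

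Tgif genes were the most abundant family at both stages, composite models left out. The tgif1 copy on scaffold 000029621 (4935155 to 4950547, plus strand) had 32.8, 27.5, 12.2, 17.3 and 26.6 FPKM in eggs and 63.6, 52.2, 60.2, 73.5 and 67.0 FPKM in embryos. The embryos were all above the eggs, 63.3 ± 7.90 against 23.3 ± 8.34 FPKM, or 2.72-fold (log2 change 1.48 ± 0.25, limma adjusted p = 3.6e-04). Its technical libraries had 49.7, 46.4 and 35.0 FPKM, between the groups.

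The other tgif1 locus, on scaffold 000008006, holds overlapping models on opposite strands that share 1690 exon bases, and their reads cannot be told apart. The plus-strand model (1839731 to 1852745) had 20.3, 28.4, 16.5, 17.6 and 14.7 FPKM in eggs and 36.5, 39.1, 41.2, 37.2 and 36.6 FPKM in embryos (log2 change 0.96 ± 0.18, adjusted p = 7.5e-04). The minus-strand model (1839726 to 1852397) was at 0 in 4 eggs and at 2.59 FPKM in egg 4, and had 9.33, 12.3, 8.82, 14.2 and 23.8 FPKM in embryos (log2 change 3.42 ± 0.40, adjusted p = 2.8e-05). The minus-strand model passed the filter only through its embryo values, so that it had to be higher there. Neither model had an embryo within the range of the eggs. Added together, the locus had 20.0 ± 5.27 FPKM in eggs and 51.8 ± 5.30 FPKM in embryos, 2.59-fold more.

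The tgif2 models changed less. The copy on scaffold 000050341 (361390 to 369299, minus strand) had 13.5, 11.7, 14.5, 12.9 and 11.7 FPKM in eggs and 21.7, 19.0, 20.1, 22.4 and 22.4 FPKM in embryos. The spread was small at both stages and the groups did not overlap (log2 change 0.68 ± 0.14, adjusted p = 0.0015). The copy on scaffold 000125077 (855647 to 864751, minus strand) had 15.8, 14.1, 16.5, 21.9 and 17.5 FPKM in eggs and 21.6, 23.5, 26.3, 22.2 and 17.5 FPKM in embryos. Egg 4 reached the embryos and embryo 5 the eggs (log2 change 0.36, 95% interval -0.01 to 0.73, adjusted p = 0.086). The change passed without egg 4 (0.45, adjusted p = 0.046) or without embryo 5 (0.44, adjusted p = 0.042), which are the libraries that overlapped. In all it passed in 3 of 17 settings of the fit. A short opposite-strand tgif2 model within it had at most 0.333 FPKM in any single library.

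**Figure D4:**
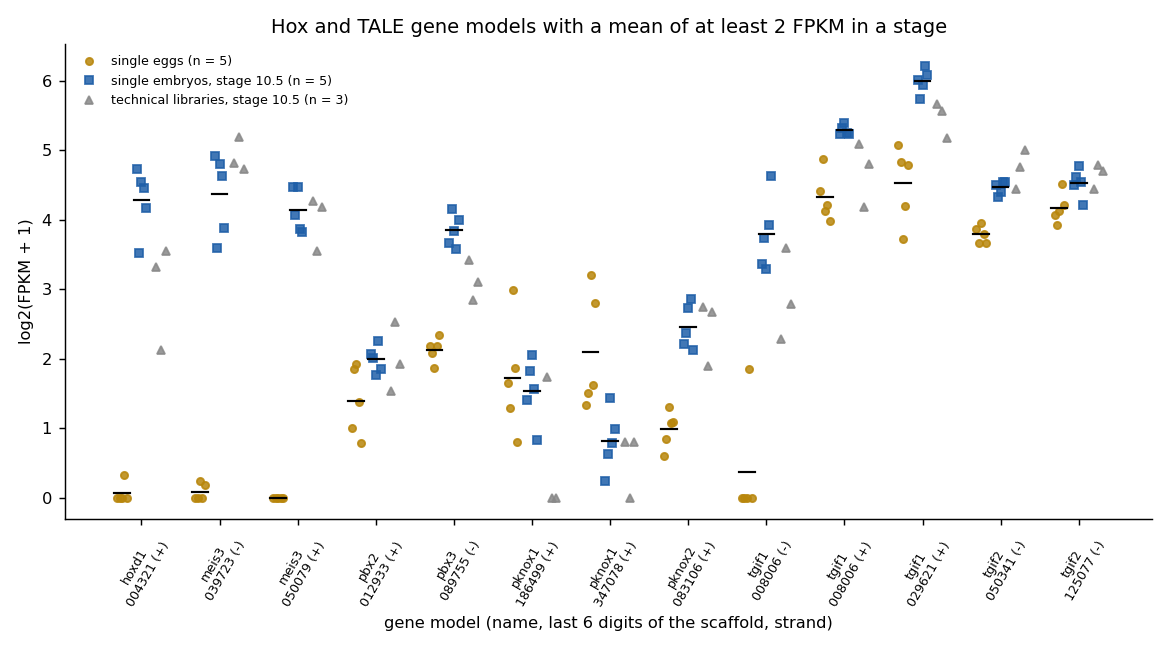
Level of 13 non-composite members that reached a mean of 2 FPKM in eggs or embryos, as log2(FPKM + 1), 1 point per library (gold circles eggs, blue squares single embryos, grey triangles technical libraries; points are spread sideways for visibility) with bars at the mean of the log values for eggs and for embryos. For hoxd1 and both meis3 copies the eggs lie at or near 0, whereas the tgif1 and tgif2 copies lie above 10 FPKM in eggs, except the minus-strand tgif1 model.

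The name rule also took in 2 composite models whose values cannot be assigned to a Hox or Pbx gene. The model named stag3 and hoxa2 on scaffold 000193742 (9782 to 84620) has 33 exons and is called stag3, a meiotic cohesin gene, in the annotation. It had 2.78, 6.52, 6.74, 3.03 and 3.69 FPKM in eggs and 0.358, 0.190, 0.201, 0.379 and 0.694 FPKM in embryos (log2 change -1.97 ± 0.27, adjusted p = 8.6e-05). All eggs were above all embryos, but the model passed the filter only through its egg values. The model that joins casc3, rpl13, pbx2 and pitpnb on scaffold 000249505 (156126 to 160077) is called rpl13, a ribosomal protein gene, in the annotation. It had 305, 247, 350, 313 and 343 FPKM in eggs and 420, 347, 383, 360 and 458 FPKM in embryos, with egg 3 within the embryo range (log2 change 0.34, adjusted p = 0.065). Without egg 3 it was 0.38, with an adjusted p of 0.046, and it passed in 2 of 17 settings of the fit. In all, 14 members had another name in the annotation, and 6 of them had no Hox or TALE name there. For example, hoxc9 on scaffold 000004321, which lies beside hoxd10 and hoxd13, is called hoxd9.

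Copies with the same name were compared within each library, by the difference of their log2(FPKM + 1). Of 15 member names that stand alone on exactly 2 gene models, 5 had enough expression to be tested. For pbx3 the stage change differed between copies: the copy on scaffold 000089755 rose by 1.72 and that on scaffold 000403228 had a log2 change of -0.0045 (difference 1.72 ± 0.18, limma adjusted p = 3.7e-05). The first copy held 89.4% of the summed level of both in eggs and 97.2% in embryos, and was the higher copy in every single library. Among all 3426 same-named pairs tested, the stage change differed in 37.6%.

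For the meis3 copies the difference was 0.14, with a 95% interval of -0.40 to 0.68 (adjusted p = 0.68). The copy on scaffold 000039723 held 55.2% of the summed embryo level and was higher in 4 of 5 embryos. For pknox2 the difference between the copies on scaffolds 000075966 and 000083106 was -1.08 (-2.05 to -0.10 before adjustment, adjusted p = 0.078). Of the settings tried, it passed only without egg 4 (-1.32, adjusted p = 0.042). The tgif2 pair is the overlapping pair on opposite strands at 1 locus and is no pair of copies in this sense.

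**Figure D5:**
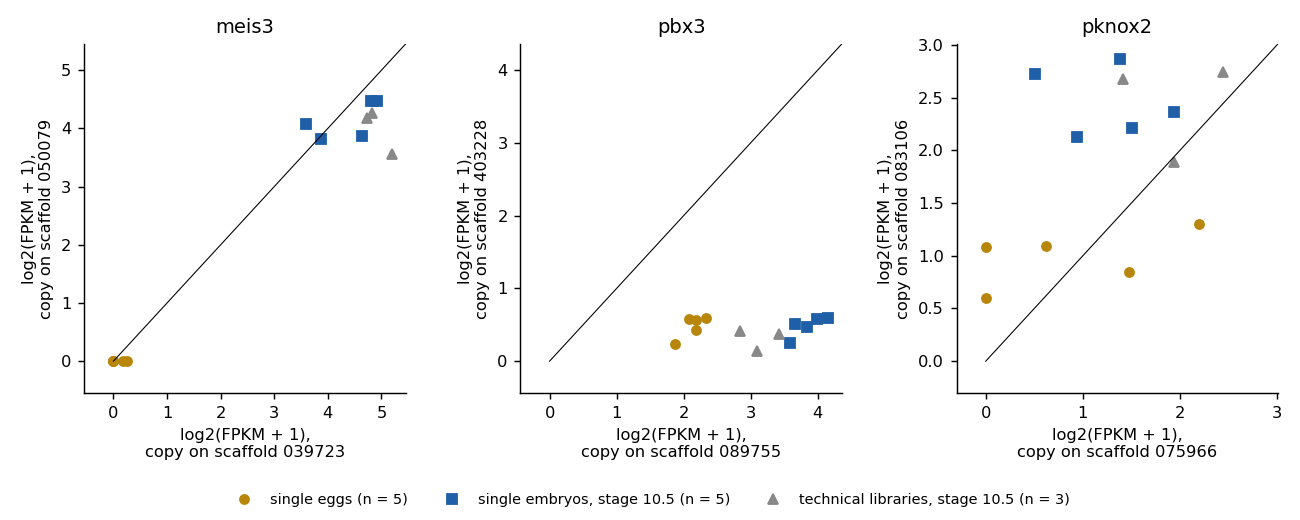
Level of the 2 same-named copies of meis3, pbx3 and pknox2 in each library, as log2(FPKM + 1), with 1 copy on each axis and the line of equal levels (gold circles eggs, blue squares single embryos, grey triangles technical libraries). For pbx3 the libraries of stage 10.5 move along the axis of the copy on scaffold 000089755 only, whereas for meis3 both copies are higher at stage 10.5 than in eggs.

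Genes that act on Hox expression were counted from lists in the same fit. Of 22 upstream genes (Cdx factors, posteriorizing Wnt and Fgf ligands, retinoic acid enzymes and receptors, hindbrain regulators and geminin), 19 were found by name. Of their 25 tested models, 17 were higher in embryos, 3 were higher in eggs and 5 did not pass, with a median log2 change of 2.32 against 0.12 over all models. In the whole table, 31.6% of tested models were higher in embryos and 25.2% higher in eggs. However, 9 of the 25 models were at 0 in all eggs and passed the filter only through their embryo values, so that they had to be higher there. The models of cdx2, of rara on scaffold 000075417 and of rarg on scaffold 000200825 also passed only through their embryo values, with egg means of 0.443, 0.659 and 0.716 FPKM. Another 12 models of the list fell below the filter. The count and the median therefore do not describe the whole list. For the 9 models at 0 in all eggs, a lower bound was also taken from the embryo mean over the egg limit of 3 reads, without the added 1. With these bounds beside the log2(FPKM + 1) changes of the other models, the median was 2.70. It mixes 2 scales and is not the same measure as the 2.32. The largest changes were those of wnt8a, which had models at 0 in all eggs and at 213.2 ± 64.0 and 52.5 ± 14.1 FPKM in embryos, and of cdx4 (0 and 92.1 ± 25.8 FPKM). The retinoic acid-degrading enzyme gene cyp26a1 on scaffold 000016863 had 1.23 ± 2.60 FPKM in eggs and 45.0 ± 9.32 FPKM in embryos. Its eggs lay between 0 and 5.88 FPKM, and the egg mean rests mostly on the highest egg. The cyp26a1 copy on scaffold 000007555 went the other way, from 35.9 ± 9.61 to 23.1 ± 4.29 FPKM (log2 change -0.60, limma adjusted p = 0.027). The receptor genes rara on scaffold 000013265 (43.4 ± 13.1 and 10.8 ± 5.15 FPKM) and rxrb on scaffold 000050694 (36.7 ± 9.78 and 22.1 ± 5.84 FPKM) were the other models called higher in eggs. The rara copy on scaffold 000075417 went the other way, from 0.659 ± 1.47 to 17.6 ± 4.45 FPKM (log2 change 3.76, limma adjusted p = 1.4e-05). A second rara model on scaffold 000013265 and the other rxrb models tested did not pass. Of fgf8, a model at 0 in eggs had 29.2 ± 8.49 FPKM in embryos, and cdx2 had 0.443 ± 0.991 and 29.7 ± 5.00 FPKM.

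Of 24 chromatin regulators of Hox genes (Trithorax and Polycomb type), 22 were found and 36 models tested. Of these, 10 were higher in embryos, 5 higher in eggs and 21 did not pass, with a median log2 change of -0.05. Over all models, 31.6% were higher in embryos and 25.2% higher in eggs, and these shares are also those to set beside the counts of the next lists. The largest change was that of wdr5 on scaffold 000251007, a subunit of histone methyltransferase complexes, from 17.0 ± 3.45 to 85.5 ± 15.1 FPKM. The wdr5 copies on scaffolds 000255149 (39.3 ± 6.54 and 36.3 ± 7.09 FPKM) and 000141248 (2.44 ± 1.27 and 2.03 ± 1.26 FPKM) did not pass. The Polycomb methyltransferase gene ezh1 on scaffold 000373158 had 1.25 ± 0.312 FPKM in eggs and 7.91 ± 1.58 FPKM in embryos. The ezh1 copy on scaffold 000045765 had 0.647 ± 0.373 and 1.15 ± 0.367 FPKM and fell below the filter. Of the Iroquois and Mohawk genes, the other TALE homeobox genes, 6 of 7 were found, and all 7 tested models were higher in embryos. Of these, 6 were at 0 in all eggs and passed the filter only through their embryo values, so that they had to be higher there. The remaining model, mkx, had 0.573 ± 1.00 FPKM in eggs and 9.07 ± 1.69 FPKM in embryos, and also passed only through its embryo values. Another 5 models of the list fell below the filter. The irx3 models on scaffold 000030483 had 63.0 ± 61.1 and 22.0 ± 5.69 FPKM in embryos, the first of them with embryos between 0 and 164.3 FPKM. Of 8 partners of Tgif proteins, 7 were found. Of their 9 tested models 0 were higher in embryos by limma (0 also at an unadjusted p under 0.05), 1 was higher in eggs and 8 did not pass. The model higher in eggs was the deacetylase gene hdac2 on scaffold 000000873, with 7.18 ± 1.59 and 2.11 ± 0.896 FPKM. The hdac2 copy on scaffold 000275342 had 4.46 ± 1.09 and 3.14 ± 0.680 FPKM and did not pass.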

How the data were processed

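The authors depleted ribosomal RNA, sequenced single-end reads of 42 bases, mapped them with gmap to a JGI draft assembly (scaffold names start with JGIv7b) and computed FPKM with Cufflinks 2.1.1 for 54110 gene models. The submitters' processing notes also name Cuffdiff, whose layout the table has. A scaling between libraries is therefore probable but not stated. FPKM were used as deposited. The merged profile of each stage was not tested, and 39 further columns of single libraries (confidence limits and status) were not used. The deposited gene model file gave positions, exons and second names, joined by model identifier.

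Members and gene lists were chosen with earlier results of these data known. The 5 eggs and 5 embryos were set against each other by limma (version 3.58.1, R 4.3.3) fitted to log2(FPKM + 1) of models whose mean was 1 FPKM or more, empirical Bayes with a trend and Benjamini-Hochberg adjustment over all models tested (threshold 0.05). Copies were compared with the same model on the difference of log2 values within each library. The values of every library are given for members with a mean of at least 2 FPKM at a stage. Other members are named if above 0 in all 5 libraries of a stage, and at most 6 genes of each list past the threshold, by the largest change. Some members are not reported here by name, although they enter the counts and sums. Values of rara, rarg, rxrb and mkx, of the second cyp26a1 and of the other wdr5, ezh1 and hdac2 copies were added after they were seen. So were those of velo1 and h1foo. The same holds for values of hoxb1, hoxa13 and hoxa2, of a pbx2 fragment and a short tgif2 model, and of models named only in the annotation. Recovered reads assume fragments of 200 ± 80 bases (SD). On models of at least 500 bases, 88.9% to 92.3% of low values per library were whole within 0.1 read. Limits at 0 are 3 reads over a group, and intervals cover counting error only. The limma step was tested on simulated data. Python 3.11.15 with matplotlib 3.10.9 drew the plots. Sequences of the members were not used here.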

Additional observations from a re-analysis of the deposited data

Results flagged for a closer look

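In 34 groups of 5 libraries (17 members at each stage), the highest or lowest library was compared with the nearest of the others relative to the range of the group. Chance marks about 1 group in 20. Egg 4 stood apart for hoxd1 on scaffold 000004321, at 0.247 FPKM (1 recovered read) with the other 4 eggs at 0. Egg 4 also stood apart for the minus-strand tgif1 model on scaffold 000008006, at 2.59 FPKM with the other 4 eggs at 0. Reads of this model cannot be told apart from those of the overlapping plus-strand model. Summed over both strands, egg 4 had 20.2 FPKM, within the range of 14.7 to 28.4 FPKM of the eggs, and did not stand apart. In egg 4 the early zygotic markers summed to 0 FPKM, against 0.166 to 1.11 FPKM in the other eggs, and a link between these values was not tested. For hoxd1 and for the minus-strand tgif1 model the gap spans the whole range of the group, because the other values are tied at 0.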

How the results depend on the processing

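Replicate numbers did not pair eggs with embryos: the deviations of same-numbered libraries correlated between -0.017 and 0.074, and 2 of 5 eggs (3 and 5) correlated best with the embryo of their own number. With the replicate number as a block, 10 members were higher in embryos, 2 were higher in eggs and 1 copy pair differed, as without it. The count of members higher in embryos was 15 without a filter on low values, 9 with a mean of at least 5 FPKM, 12 with median-of-ratios scaling and 10 to 12 when each library was left out. Over all models it was 7286 of 32559 without the filter and 4156 of 12352 at 5 FPKM. With scaling it was 6490 of 19375, against 6123 of 19373 in the main fit. Leaving out each library gave 5514 to 6253. Without a filter, all members but the 14 at 0 in all 10 single libraries were tested, so that more could be called. Members gained without the filter included hoxc6 on scaffold 000187496 (limma adjusted p = 5.3e-04), hoxc13 on scaffold 000005732 (0.025), meis2 on scaffold 000203041 (0.0018) and the model named meis2 and meis1 on scaffold 000012020 (1.9e-05). The hoxc6 and hoxc13 models and the model on scaffold 000012020 were at 0 in all 5 eggs. They entered through their embryo values alone, from 20, 8 and 33 reads, and could only be called higher in embryos. The meis2 model had 4 reads in eggs and 42 in embryos. The count higher in eggs was 0 with a mean of at least 5 FPKM, since both members fall below that filter, and 2 whichever library was left out. Over all models it was 3735 of 12352 at 5 FPKM, and 4453 to 5070 when each library was left out. The count of differing copy pairs was 3 without a filter (hoxc13, meis2 and pbx3), 0 with a mean of at least 5 FPKM and 1 to 2 when each library was left out. The share of 37.6% over all same-named pairs belongs to the main filter and was not taken for these settings. For hoxc13 the copy on scaffold 000049342 was at 0 in all 10 single libraries. Its pair difference of 0.50 therefore only repeats the change of the other copy. The change of pknox1 on scaffold 000186499 ranged from -0.42 to 0.13 when each library was left out, turning positive without egg 3, and the difference of the meis3 copies was -0.31 with a pseudocount of 0.1, neither past the threshold. With median-of-ratios scaling, which moved log2 changes by a median of 0.07, tgif2 on scaffold 000125077 passed (0.44, adjusted p = 0.039), as did the rpl13 composite (0.42, adjusted p = 0.029). All 12 calls held in every setting in which the model was tested. The few reads per Hox model limit what can be said below 1 FPKM.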
